A study of Mus musculus with 4 samples.

Results

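Replication-dependent histone genes are the clustered genes that supply the bulk of the histone protein packaged onto newly made DNA. They were identified on the array by platform symbol, as genes named in the Hist1h to Hist4h or the newer H1f1 to H1f5, H2ac, H2bc, H3c and H4c series, and 26 of the 19938 genes with a symbol of their own met this rule. The 26 comprised 4 H1 linker histone genes, 4 H2A, 9 H2B, 3 H3 and 6 H4 genes, and each was read by 1 feature. Of these, 22 lie on mouse chromosome 13 and 4 (H2bc18, H2bc21, H3c15 and H4c14) on chromosome 3. A further 36 histone symbols appear on the platform only in features that list several genes, and those features are described separately.

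The study measured total RNA from mouse dorsal cortex, taken from embryos at E18.5, shortly before birth, on 4 Affymetrix whole-transcript arrays. The 2 control samples were Mek1fl/wt, Mek2-/-, carrying 1 floxed and 1 wild-type Mek1 allele. The 2 mutant samples were Mek1fl/fl, Mek2-/- with NestinCre, a Cre recombinase driven by Nestin regulatory sequence, which is active in neural progenitors and their progeny. Both groups therefore lacked Mek2, and the controls, which the series text calls wild type, were not wild type at that gene. Since no control is labelled as carrying NestinCre, effects of the transgene and of Mek1 loss cannot be told apart. MEK1 and MEK2, encoded by Map2k1 and Map2k2, activate ERK by phosphorylation, and the comparison asks which transcripts differ when cortical cells are left without either.

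Replication-dependent histone transcripts are made almost entirely in S phase, when their clusters are transcribed by RNA polymerase II with the coactivator NPAT, which cyclin E and CDK2 phosphorylate. Most of these transcripts end in a stem-loop bound by SLBP in place of a poly(A) tail, and they decay when DNA synthesis stops. In the embryonic cortex, dividing cells are chiefly radial glia and intermediate progenitors, and neurons are postmitotic. Some members, among them H1f2, H2bc4 and H2bc21, are known also to give polyadenylated transcripts in cells that no longer divide. The labelling method primes along the whole transcript, so a poly(A) tail is not needed for detection.

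The promoters of the 3 genes called lower in the mutants (H1f5, H2bc14 and H2bc9) are shown with that of the linker histone gene H1f1 and of 2 members, H1f2 and H2bc8, whose values overlapped between the groups. Each line gives the 150 bases before the annotated start, 5′ to 3′, from RefSeq on GRCm38.p6. Capitals mark exact matches on either strand to TATAAA (the TATA box), CCAAT, ATTTGCAT (the octamer of histone H2B promoters) and AAACACA (the H1 box).
H1f5, chr13:21780626-21780775, minus strand: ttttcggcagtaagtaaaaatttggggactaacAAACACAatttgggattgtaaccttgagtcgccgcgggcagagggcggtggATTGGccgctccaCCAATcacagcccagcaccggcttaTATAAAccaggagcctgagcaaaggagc
H1f1, chr13:23763518-23763667, plus strand: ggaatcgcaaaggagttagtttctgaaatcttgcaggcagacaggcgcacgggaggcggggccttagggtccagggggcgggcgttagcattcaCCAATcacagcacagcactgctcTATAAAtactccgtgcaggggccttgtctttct
H1f2, chr13:23738657-23738806, plus strand: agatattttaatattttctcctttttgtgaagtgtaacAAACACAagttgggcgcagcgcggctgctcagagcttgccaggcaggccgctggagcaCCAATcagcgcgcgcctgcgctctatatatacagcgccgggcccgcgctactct
H2bc14, chr13:21721894-21722043, plus strand: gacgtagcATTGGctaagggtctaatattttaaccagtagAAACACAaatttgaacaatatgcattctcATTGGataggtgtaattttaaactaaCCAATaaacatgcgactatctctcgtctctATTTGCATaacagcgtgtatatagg
H2bc9, chr13:23543445-23543594, minus strand: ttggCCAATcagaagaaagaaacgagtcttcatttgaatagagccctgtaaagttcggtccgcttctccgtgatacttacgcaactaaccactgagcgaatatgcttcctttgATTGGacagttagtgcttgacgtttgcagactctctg
H2bc8, chr13:23571250-23571399, plus strand: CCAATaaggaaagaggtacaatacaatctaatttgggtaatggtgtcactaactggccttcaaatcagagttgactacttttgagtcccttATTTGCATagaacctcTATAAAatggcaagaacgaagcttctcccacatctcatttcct
H1f5 and H1f1 each held TATAAA close to the start, at positions -28 and -33, after a CCAAT match at -53 and -56. H1f2 held CCAAT and AAACACA but no exact TATAAA. H2bc8 held both TATAAA, at -43, and the octamer, at -59, while H2bc9 held neither and had CCAAT matches only. H2bc14 held the octamer, CCAAT and AAACACA but no exact TATAAA.

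Promoter entries were matched for 22 of the 26 members. H2bc4, H2bc21, H3c7 and H4c14 had no entry in the table. In windows of 300 bases, from 250 before to 50 after the start, TATAAA on either strand occurred in 15 of the 22 (68.2%), against 13.6% of all 32851 windows. CCAAT occurred in 19 (86.4%), against 37.4% of all windows. The octamer ATTTGCAT occurred in 8 (36.4%), which were 3 of 4 H2A and 5 of 7 H2B promoters, against 1.74% of all windows. AAACACA occurred in 7 (31.8%), 3 of them among the 4 H1 genes, against 7.18% of all windows. None of these motifs contains another. H2ac8 and H2bc8, and likewise H2ac1 and H2bc1, are divergent pairs whose windows overlap, so their matches are partly the same bases. Among the matched members whose levels were tested for a difference between mutant and control, the median log2 difference was -0.46 for the 10 with TATAAA and -0.17 for the 6 without. It was -0.42 for the 13 with CCAAT and -0.012 for the 3 without, and -0.65 for the 5 with AAACACA and -0.37 for the 11 without. For the octamer the medians were both -0.39, over 6 genes with it and 10 without. These medians are descriptions with no test, and single genes departed from them. H2bc8, with TATAAA, differed by -0.054, and the called genes H2bc14 and H2bc9, without it, by -0.65 and -0.46. A TATAAA match anywhere in the window was counted, whatever its distance from the start. The nearest before the start lay at -250 in H4c6 and -137 in H4c9, and H2ac15 had none before the start. The 3 tested members without CCAAT were all H4 genes, so motif and class are not separated there. H4c6, H4c8 and H4c9 differed by -0.53, -0.0024 and -0.012. None of the 5 matched H4 promoters held AAACACA or the octamer, so class is not separated from those motifs either.

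The deposited values are log2 expression summaries, and a gene entered the test when its mean over the arrays was at or above the 30th percentile of all genes, a log2 value of 6.16. This left 13956 genes, 19 of them members. Array medians over all features lay between 7.11 and 7.13. The targeted gene Map2k1, which encodes MEK1, read 8.76 and 8.84 in the controls and 8.50 and 8.73 in the mutants, a difference of -0.19 with a limma adjusted p of 0.469. Map2k2, which encodes MEK2 and is lost in both groups, read 8.57 and 8.47 in the controls and 8.57 and 8.64 in the mutants. The position of these probes relative to the deleted exons was not analysed here, so neither value checks the genotypes. The root mean square difference over the genes tested was 0.149 between the controls and 0.191 between the mutants, and 0.178 to 0.23 between a control and a mutant.

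Histone genes read lower in the mutant cortex as a group. The mean was lower in the mutants for 18 of the 19 tested members (94.7%), against 47.6% of all genes tested, and for 15 and 16 of them with each array centred on its median or quantile normalized. The median difference over the 19, mutant minus control, was -0.31 on the log2 scale, against 0.0053 over all genes tested. Against the mean of the controls, the median member stood at 0.04 in control 1 and -0.04 in control 2, and at -0.39 in mutant 1 and -0.30 in mutant 2. Both mutants lay above both controls for 1 member (5.26%), against 22.8% of all genes tested. They lay below both controls for 14 members (73.7% of the 19), while the same held for 21.4% of all genes tested. For 6 members (31.6%) the groups were apart in this direction by at least 0.5 between means, against 1.86% of all genes. Limma called 3 members lower at an adjusted p under 0.05 (15.8%), where 1.01% of all genes tested were called lower, and called no member higher, where 0.0143% of all genes were. At an unadjusted p under 0.05, 13 members were lower (68.4%), against 7.69% of all genes, and 1 was higher, against 5.73%.

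**Figure D1:**
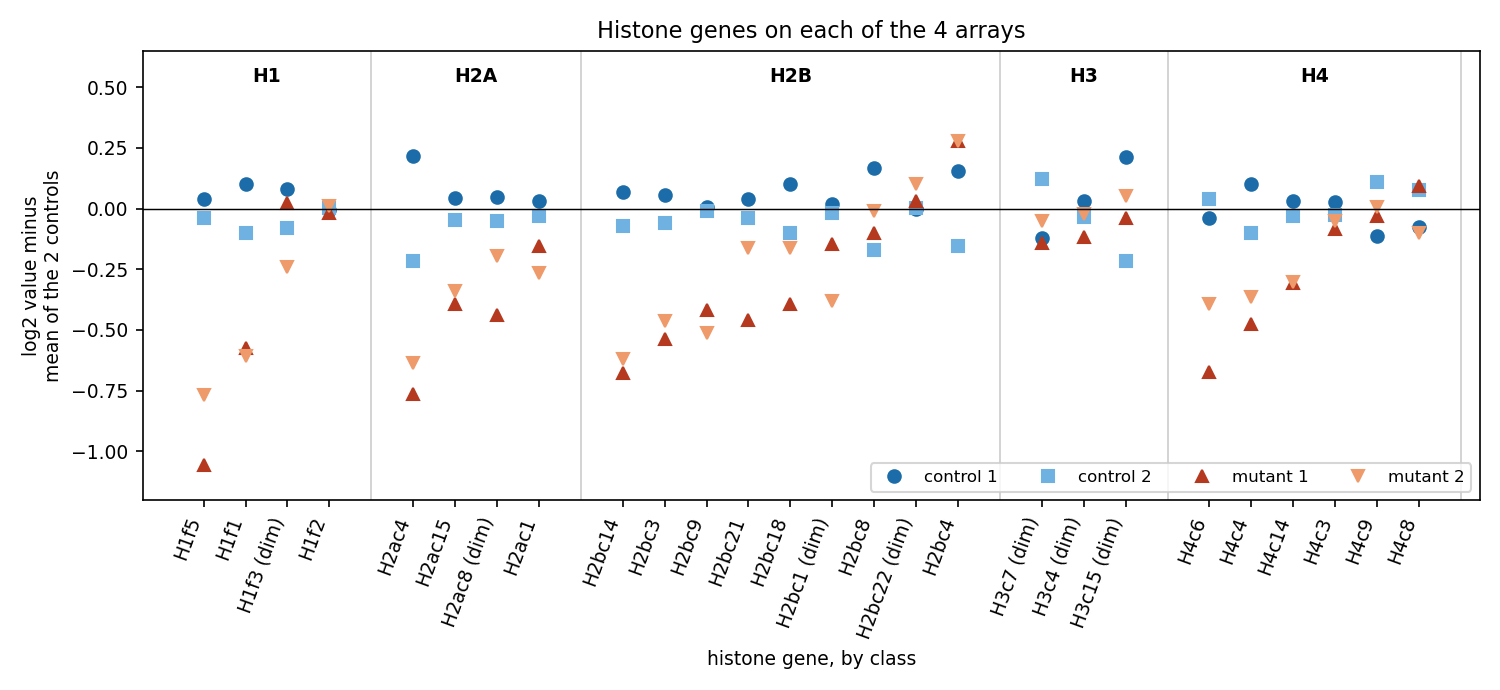
Log2 value of each of the 26 histone genes on each of the 4 arrays, minus the mean of the controls (vertical axis), with genes grouped by class along the horizontal axis and the 7 below the filter marked as dim. Points are single arrays: among the 19 tested genes, both mutants lie below both controls for 14 and above them for H2bc4, and the groups overlap for 4.

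The 3 calls were lost when either control was left out, and in some fits that kept both controls. Those were the fits with no filter on dim genes, with the replicate number as a block and with embryo sex as a covariate. H2bc9 was also not called with each array centred on its median or after quantile normalization. With 1 array left out, the difference lay between -1.05 and -0.77 for H1f5, -0.72 and -0.58 for H2bc14, and -0.51 and -0.42 for H2bc9. Leaving out either mutant raised the number of calls over all genes too. Higher counts in such fits are therefore not particular to the histone genes or to the lists below. The labels do not say whether the samples came from separate embryos or litters, so the p-values measure the spread between these samples, which may be technical. Each group held 1 sample with high Xist and 1 with Y-linked transcripts.

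**Figure D2:**
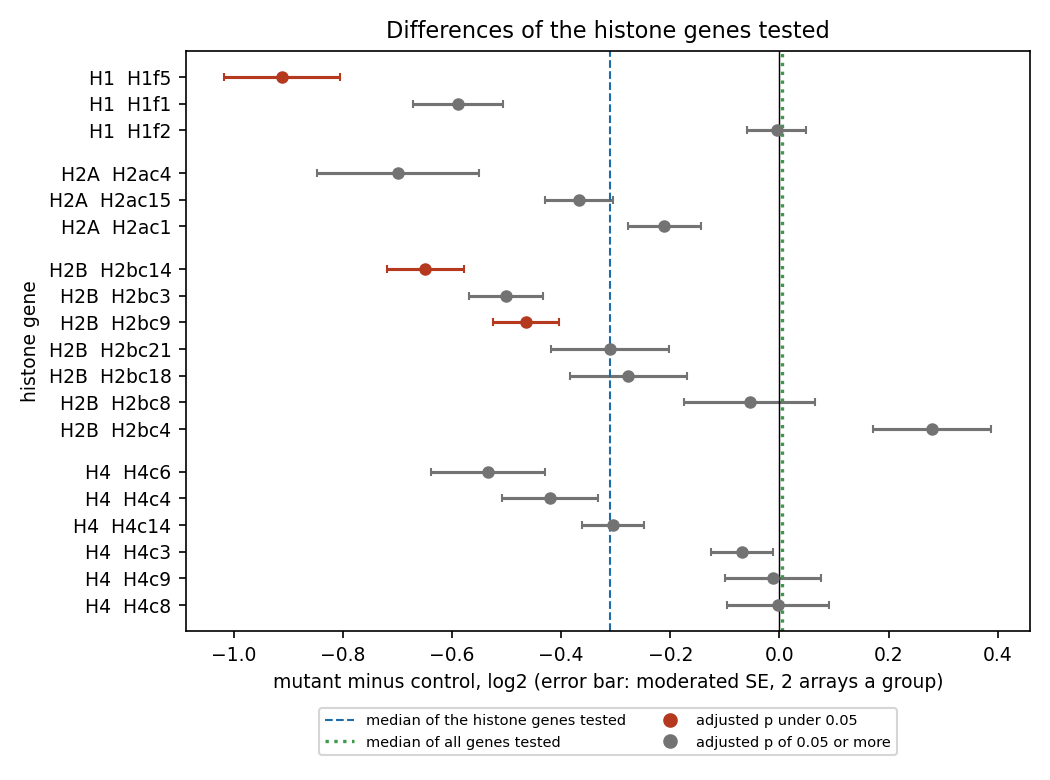
Difference between mutant and control means (log2, horizontal axis) for each of the 19 tested histone genes, with bars of 1 limma standard error, called genes in red and dashed and dotted lines at the medians of the histone genes and of all genes. Values run from -0.91 for H1f5 to 0.28 for H2bc4, with medians of -0.31 for the histone genes and 0.0053 for all genes.

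Linker histones bind the DNA between nucleosomes, and the H1 class held the lowest difference of any member. H1f5 (Hist1h1b), a linker histone of dividing cells, read 11.13 and 11.05 in the controls and 10.04 and 10.33 in the mutants. It fell by 0.91 on the log2 scale (SE 0.11), a 1.88-fold lower level, with a limma adjusted p of 0.0375. H1f1 (Hist1h1a) read 10.31 and 10.10 in the controls and 9.63 and 9.60 in the mutants. The H1f1 groups did not overlap and differed by -0.59 (SE 0.08), but the limma adjusted p of 0.055 missed the threshold. H1f2 (Hist1h1c), the linker gene known for polyadenylated transcripts in non-dividing cells, read 8.45 and 8.46 in the controls and 8.44 and 8.46 in the mutants. Its difference was -0.0053 (SE 0.05, limma adjusted p 0.981), and the groups overlapped. H1f3 was below the filter. The 3 tested H1 genes had a median difference of -0.59 and spanned the range from nearly 0 to the lowest value among the members.

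H2A genes encode 1 of the 2 partners of the H2A-H2B dimer, and all 3 tested members read lower in both mutants, with none called. H2ac4 (Hist1h2ab) read 7.37 and 6.94 in the controls and 6.39 and 6.52 in the mutants, a difference of -0.70 (SE 0.15, limma adjusted p 0.142). The controls differed from each other by about as much as the nearer mutant from the lower control. H2ac15 (Hist1h2ak) read 9.23 and 9.13 in the controls and 8.79 and 8.84 in the mutants, a difference of -0.37 (SE 0.06, limma adjusted p 0.0856). H2ac1 (Hist1h2aa), known as a testis histone gene, read 7.99 and 7.93 in the controls and 7.81 and 7.70 in the mutants, a difference of -0.21 (SE 0.07, limma adjusted p 0.279). The class median was -0.37.

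H2B was the class with the most genes on the array, and its 7 tested members ran from a clear decrease to a higher reading. H2bc14 (Hist1h2bm) read 9.58 and 9.44 in the controls and 8.83 and 8.89 in the mutants. It fell by 0.65 (SE 0.07), 1.57-fold, with a limma adjusted p of 0.0308. H2bc9 (Hist1h2bh) read 8.89 and 8.88 in the controls and 8.47 and 8.37 in the mutants. It fell by 0.46 (SE 0.06), 1.38-fold, with a limma adjusted p of 0.0477, just inside the threshold. In both genes the gap between the groups was several times the distance between arrays of one group. H2bc3 (Hist1h2bb) lay just outside the threshold: it read 7.72 and 7.60 in the controls and 7.12 and 7.19 in the mutants, a difference of -0.50 (SE 0.07, limma adjusted p 0.0517).

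The remaining H2B genes showed smaller differences, none of them called. H2bc21 (Hist2h2be), a gene known for polyadenylated transcripts, read 7.19 and 7.11 in the controls and 6.69 and 6.99 in the mutants. H2bc18 (Hist2h2bb) read 7.82 and 7.62 against 7.33 and 7.56. Both were lower in each mutant, by -0.31 (SE 0.11, limma adjusted p 0.318) and -0.28 (SE 0.11, limma adjusted p 0.366), and in both mutant 1 was the lower array. H2bc8 (Hist1h2bg) read 7.11 and 6.77 in the controls and 6.84 and 6.93 in the mutants, so both mutants lay within the range of the controls. H2bc4 (Hist1h2bc), another gene known for polyadenylated transcripts, was the exception to the direction of the group. It read 8.45 and 8.14 in the controls and 8.57 and 8.57 in the mutants, a difference of 0.28 (SE 0.11) with a limma adjusted p of 0.366 (unadjusted 0.047). Without control 1 its difference was 0.43 and without control 2 it was 0.13. The class median was -0.31, or -0.16 without mutant 1.

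All 3 H3 genes with a symbol of their own (H3c4, H3c7 and H3c15) were below the filter, so no H3 gene was tested singly. The 7 members below the filter differed by -0.32 to 0.07, with a median of -0.10. Of these, H2ac8 read 4.22 and 4.13 in the controls and 3.74 and 3.98 in the mutants, and H2bc1 read 5.80 and 5.77 against 5.64 and 5.40. Mutants were also on one side of the controls for H2bc22, where they were higher, and the groups overlapped for the other 4. The member nearest below the filter was H3c4, with a mean of 6.06, and the nearest above it was H4c8, with 6.39. Dim values on arrays sit close to background, which compresses differences.

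H4 genes encode the partner of H3 in the histone tetramer, and the 6 tested members split into 3 with differences of -0.30 or lower and 3 near 0. H4c6 (Hist1h4f) read 9.66 and 9.74 in the controls and 9.03 and 9.31 in the mutants, a difference of -0.53 (SE 0.10, limma adjusted p 0.119). H4c4 (Hist1h4d) read 10.91 and 10.71 in the controls and 10.33 and 10.44 in the mutants, a difference of -0.42 (SE 0.09, limma adjusted p 0.138). In both genes the groups did not overlap, and the nearer arrays of the 2 groups were further apart than the arrays within a group. H4c14 (Hist2h4), on chromosome 3, read 10.38 and 10.32 in the controls and 10.04 and 10.05 in the mutants, a difference of -0.30 (SE 0.06, limma adjusted p 0.105). H4c3 (Hist1h4c) read 7.65 and 7.60 against 7.54 and 7.58, apart by less than the spread of either group. H4c9 (Hist1h4i) and H4c8 (Hist1h4h) overlapped between the groups, with differences of -0.012 and -0.0024. The class median was -0.19, and no H4 gene was called.

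By chromosome, the 16 tested members on chromosome 13 had a median difference of -0.39 and the 3 on chromosome 3 a median of -0.30. Of the 3 on chromosome 3 (H2bc18, H2bc21 and H4c14), each read lower in both mutants. These are medians over genes that share arrays and, within a cluster, neighbouring positions, and they carry no test.

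Histone genes of a class have nearly the same coding sequence, and many features on the array list several of them. There were 26 such features, 24 of them with distinct values, and 18 of the 26 members are listed in at least 1 of them as well. These features read several genes together and cannot be assigned to one, and those of a class share sequence, so they are not separate measurements. All 24 read lower in both mutants than in both controls, by -0.69 to -0.23 with a median of -0.58. In a limma fit over all 16387 features, 6 of the 24 were called lower, where 0.738% of all features were, and all 24 were lower at an unadjusted p under 0.05, where 7.69% of all features were.

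**Figure D3:**
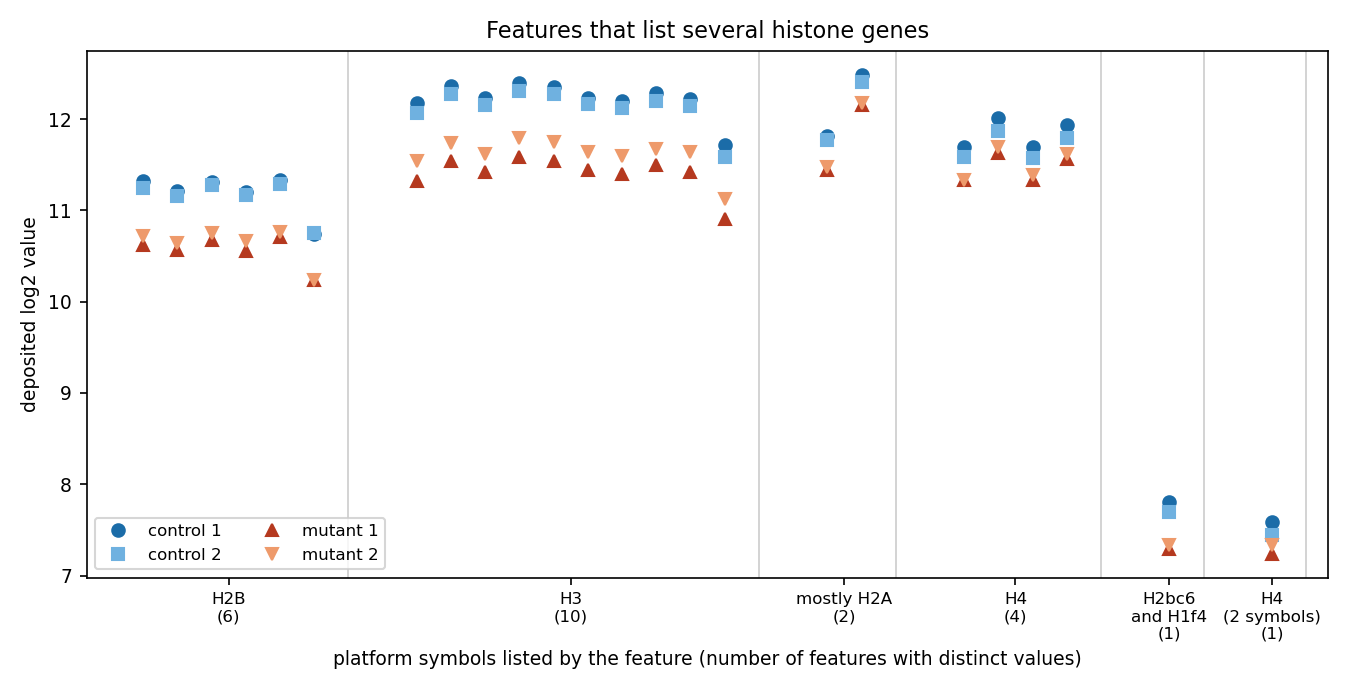
Deposited log2 values (vertical axis) of the 24 features with distinct values that list several histone genes, grouped by the histone class they list, with the number of features in brackets. Points are single arrays, and in each of the 24 both mutants lie below both controls, with a median difference of -0.66 for H3 and -0.28 for H4.

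The shared H2B features, each listing 14 or 15 symbols, had medians of 11.26 and 11.21 in the controls and 10.59 and 10.69 in the mutants. All 6 with distinct values were called by limma (adjusted p 0.0345 to 0.0394), at 1.42-fold to 1.53-fold lower. The 10 shared H3 features, each listing 12 symbols, had medians of 12.23 and 12.16 in the controls and 11.43 and 11.64 in the mutants. Their differences of -0.69 to -0.63 were the largest of the shared classes, but limma's adjusted p of 0.0535 to 0.0781 called none of the 10. For H3, which no single-gene feature measured above the filter, these features are the reading available, and mutant 1 was the lower array. The shared H4 features, each listing 11 symbols, had medians of 11.82 and 11.69 in the controls and 11.44 and 11.50 in the mutants, with differences of -0.32 to -0.28 (limma adjusted p 0.138 to 0.221). Features that list mostly H2A genes, 19 and 20 symbols each, also take in H2ax and H3c4. They differed by -0.33 and -0.28, with limma adjusted p of 0.0909 and 0.152.

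A feature listing H2bc6 and the linker gene H1f4 read 7.81 and 7.69 in the controls and 7.29 and 7.33 in the mutants, a difference of -0.44 (limma adjusted p 0.0733). The calls among the shared features moved with single arrays, and all were lost when either control was left out. With any 1 array left out, all 24 still read lower in the mutants. With each array centred on its own median limma called 15 of the 24, 6 among H2B and 9 among H3 features.

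The median difference of genes that transcribe and process histone transcripts lay close to that of all genes. Of 25 genes on that list, 23 were tested, and limma called 0, where 1.01% of all genes tested were called lower. At an unadjusted p under 0.05, 4 of the 23 were lower and 0 higher, where 7.69% and 5.73% of all genes were. The median difference was -0.01, and it turned to 0.0097 when each array was centred on its median. Both mutants lay below both controls for 8 of the 23 and above them for 0, against 21.4% and 22.8% of all genes tested. Npat, the coactivator of histone gene transcription, read 8.48 and 8.40 in the controls and 8.37 and 8.37 in the mutants, a difference of -0.07 (limma adjusted p 0.685). Slbp, the stem-loop binding protein gene, read 8.98 and 9.05 against 8.88 and 9.06, and its groups overlapped. Within this list the genes with the smallest p were Ccne2, encoding a cyclin E, Cdk2, its kinase, and Cstf2, a 3′ end processing factor. Cdk2 read 8.34 and 8.38 in the controls and 7.58 and 7.99 in the mutants, a difference of -0.57 (limma adjusted p 0.187). Ccne2 differed by -0.44 (limma adjusted p 0.115) and Cstf2 by -0.21 (limma adjusted p 0.218). Without mutant 2, 2 genes of this list were called lower.

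Chaperones carry histones to the replication fork and deposit them on DNA. Of 23 tested genes of this list, limma called 0, where 1.01% of all genes tested were called lower. At an unadjusted p under 0.05, 5 of the 23 were lower and 0 higher, where 7.69% and 5.73% of all genes were. Both mutants lay below both controls for 8 of the 23 and above them for 3, against 21.4% and 22.8% of all genes tested. The median difference was -0.03. The smallest p-values belonged to Mcm2, a helicase subunit that binds H3 and H4, Asf1b, the chaperone of proliferating cells, and Chaf1b, a subunit of the chromatin assembly factor. Mcm2 read 8.56 and 8.63 in the controls and 8.03 and 8.17 in the mutants, a difference of -0.49 (limma adjusted p 0.0615). Asf1b and Chaf1b differed by -0.30 (limma adjusted p 0.117) and -0.31 (limma adjusted p 0.149), with no overlap between groups in either. Leaving out mutant 1 gave 1 call in this list and leaving out mutant 2 gave 2.

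Replication-independent histone variants are, for the most part, made throughout the cell cycle from polyadenylated transcripts. Of 8 tested variants, limma called 0, where 1.01% of all genes tested were called lower. At an unadjusted p under 0.05, 4 of the 8 were lower, where 7.69% of all genes were, and 0 were higher. Both mutants lay below both controls for 5 of the 8 and above them for 1, against 21.4% and 22.8% of all genes tested. The median difference was -0.17, nearer to 0 than the -0.31 of the replication-dependent genes. The difference between these medians was not tested. H2az2, an H2A.Z gene, and Cenpa, the centromeric H3 gene, had the smallest p. H2az2 read 10.74 and 10.67 in the controls and 10.34 and 10.38 in the mutants, a difference of -0.35 (limma adjusted p 0.0842). Cenpa, whose transcript rises in dividing cells, differed by -0.68 (limma adjusted p 0.0989). H1f10, a linker variant, differed by -0.21 (limma adjusted p 0.263). Without mutant 2, 2 of the 8 were called lower.

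Genes of S phase and of cycling progenitors read lower beside the histone genes. The S phase list shares Ccne1, Ccne2, Slbp and E2f1 with the list of histone transcription and processing, and Mcm2 with that of chaperones. Of 42 tested S phase genes, both mutants lay below both controls for 32, where the same held for 21.4% of all genes tested. The mean was lower in the mutants for 40 of the 42, against 47.6% of all genes tested, and the median difference was -0.24. Limma called 2 of the 42 lower, where 1.01% of all genes tested were called lower. They were Mcm3, a subunit of the replicative helicase, and Ccna2, the S phase cyclin. Mcm3 read 8.39 and 8.41 in the controls and 7.32 and 7.48 in the mutants, a 2.003-fold lower level (limma adjusted p 0.0185). Ccna2 read 8.98 and 8.94 against 8.04 and 8.26, and fell by 0.81 (limma adjusted p 0.0278). Without control 1 or without control 2 limma called 0 S phase genes, and without mutant 1 and mutant 2 the calls were 5 and 13. The summed linear signal of the list was 19670 and 19440 in the controls and 16090 and 16810 in the mutants.

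**Figure D4:**
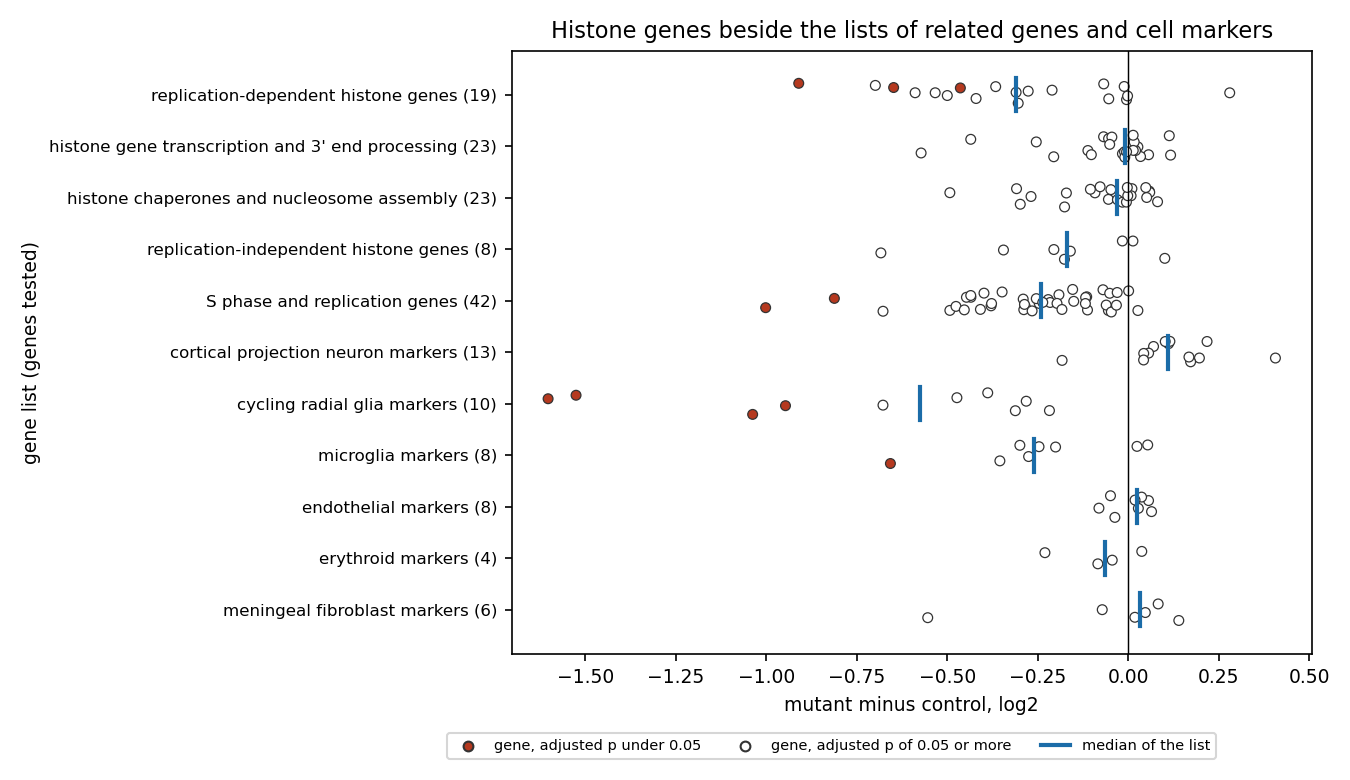
Differences between mutant and control means (log2) of the genes of each list, with the histone genes first, called genes filled in red and the list median marked by a bar. The median lies at -0.31 for the histone genes, -0.24 for S phase genes, -0.58 for cycling radial glia markers and 0.11 for neuron markers.

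All 10 tested markers of cycling radial glia read lower in both mutants, where 21.4% of all genes tested did. The median of the 10 was -0.58 (-0.77 in mutant 1 and -0.39 in mutant 2). Limma called 4 of the 10 lower, where 1.01% of all genes tested were called lower. Fabp7 and Slc1a3, radial glia genes, fell 3.04-fold and 2.88-fold (limma adjusted p 0.00538 for both). Mki67 and Top2a, proliferation genes, fell 2.05-fold and 1.93-fold (limma adjusted p 0.0251 and 0.0227). Leaving out control 1 or control 2 gave 2 calls, and leaving out mutant 2 gave 9. Their summed signal was 16740 and 16750 in the controls and 8508 and 10120 in the mutants. This linear sum is weighted towards the brightest markers and says little of the proliferation genes. Fabp7 read 12.68 and 12.62 in the controls and 10.97 and 11.13 in the mutants, and Vim 12.06 and 12.09 against 11.61 and 11.92. Cortical neuron markers, which check the labelled tissue, were present on every array at log2 values of 8.52 or higher. Of the 13 tested, 10 read higher in both mutants, where 22.8% of all genes tested did. Limma called 0 of the 13. At an unadjusted p under 0.05, 2 were higher and 0 lower, where 5.73% and 7.69% of all genes tested were. The summed signal of these markers was 34770 and 34110 in the controls and 37720 and 37060 in the mutants. Without mutant 2, 1 neuron marker was called higher. In bulk tissue, fewer cells of a type and less RNA per cell cannot be told apart, and the part of progenitor number in the histone values was not tested.

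Markers of other cells that a dissection can hold were also measured. Medians and calls cover the markers tested. The summed signals take in every marker on the array, those below the filter included: 10 microglia, 9 endothelial, 7 erythroid and 10 meningeal markers. Of 8 tested microglia markers, 6 lay lower in both mutants, where 21.4% of all genes tested did. The summed microglia signal was 1480 and 1447 in the controls and 1241 and 1271 in the mutants. Fcrls, the only one called, read 6.68 and 6.78 in the controls and 6.08 and 6.06 in the mutants, a fall of 0.66 (limma adjusted p 0.0254). Both mutant values lay under the filter value of 6.16, so this gene passed the filter through its control values and is close to background. Without control 1 or without control 2 limma called 0 microglia markers, and without mutant 2 there were 4 calls. The median difference was 0.02 over 8 endothelial markers, with sums of 2415 to 2420 in the controls and 2266 to 2574 in the mutants. It was -0.06 over 4 erythroid markers, with sums of 737.3 to 771.1 against 681.4 to 739.1. Over 6 meningeal fibroblast markers it was 0.03, with sums of 1348 to 1425 against 1283 to 1443. No gene of these 3 lists was called, and at an unadjusted p under 0.05 limma gave 1 erythroid marker lower and 0 others. Without mutant 2, 1 meningeal marker was called lower. None of the markers is listed at 0, the lowest log2 value being 4.08, and the part of these cells in the histone values was not tested.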

How the data were processed

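The 4 samples were hybridised from 200 ng of total RNA each. The authors deposited log2 expression values made with RMA, per the submitters' processing notes, with a version not given in the sources used here. RMA equalises the arrays, so a shift of all transcripts together would not be visible, and scanner intensities were not used here. The platform annotation gave 1 symbol for 21789 of 35557 features, several for 1621 and none listed for 12147. For each gene the feature with the highest mean over the 4 arrays was used. The mutant-minus-control difference was fitted by limma (version 3.58.1, lmFit then eBayes, under R 4.3.3) on 13956 genes, with 2 residual and 3.31 prior degrees of freedom. P-values were two-sided and adjusted over those genes by Benjamini-Hochberg. With 2 arrays a group, the number of arrays limits the precision. On simulated data with 200 genes changed by -2 log2, the fit recovered 93.4% of them over 5 runs. That change was larger than any member's, the lowest being -0.91 for H1f5. Recovery at the sizes of difference reported here was not tested.

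The histone genes named are those called, the 3 brightest and the 3 of smallest p in each class, the extremes of each class, and those apart by at least 0.5; the other tested members and the dim members were described for completeness after their values were seen. Of other lists, called genes and the 3 of smallest p were named, with Npat and Slbp added. The members and lists were chosen with earlier results of these data known, and the fit over features with several symbols was chosen after seeing the data. Alternatives covered the filter, the variance model, array scaling, the choice of feature, each replicate left out, the replicate number as a block, and embryo sex. Same-numbered samples deviated from their group means with a correlation of -0.158, so the numbers were not taken to pair the samples.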

Additional observations from a re-analysis of the deposited data

How the results depend on the processing

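Limma called 143 genes, 3 of them replication-dependent histone genes. The counts became 15 and 0 with no filter on dim genes, 238 and 7 with an intensity trend in eBayes, and 17 and 0 with embryo sex as a covariate. With the replicate number as a block the paired fit called 116 genes and 0 histone genes, and the crossed pairing (control 1 with mutant 2) is the same fit as the sex covariate, with 17 and 0. At an unadjusted p under 0.05 the no-filter, block and sex fits gave 14, 12 and 13 histone genes lower. Leaving out 1 replicate gave 9 to 874 genes and 0 to 10 histone genes, the most without mutant 2. Of the features listing several histone genes, 6 were called, against 0 with no filter, the block or the sex covariate, 15 with a filter at the 50th percentile or arrays centred, and 19 with the trend. Of the S phase genes, 2 were called, against 0 with no filter or the sex covariate, 6 with the stricter filter, 7 with the trend, and 4 with arrays centred or quantile normalized. The histone median stayed between -0.39 and -0.27 with 1 replicate left out. With 1 replicate left out, class medians ranged from -0.69 to -0.49 for H1, -0.41 to -0.32 for H2A, -0.42 to -0.16 for H2B and -0.21 to -0.20 for H4. The H1 median was -0.35 with no filter. With a filter at the 50th percentile the H2A and H4 medians were -0.29 and -0.30, and the H4 median was -0.17 with arrays centred and -0.16 after quantile normalization. Arrays left alone in a group were assumed to vary like the other group. Of 396 single-gene values, 331 kept their direction and their side of the threshold, 25 lost a call, 29 gained one and 11 changed direction. Those 11 belong to 4 uncalled genes near 0. With arrays centred, H1f2, H4c8 and H4c9 differed by 0.015, 0.018 and 0.0089, and after quantile normalization H1f2 and H4c9 differed by 0.014 and 0.025. With 1 replicate left out, differences ranged from -0.020 to 0.0090 for H1f2, -0.22 to 0.11 for H2bc8, -0.099 to 0.094 for H4c8 and -0.12 to 0.099 for H4c9. No value was available for single H3 genes. Dim genes and the number of arrays limit what could be detected.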

Other observations

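Histone genes outside the symbol rule were also on the array. H4f16 (Hist4h4), a separate H4 gene, read 8.85 and 8.75 in the controls and 8.62 and 8.61 in the mutants, a difference of -0.18 with both mutants below both controls. H2aw (Hist3h2a) read 10.95 and 10.91 in the controls and 10.90 and 10.93 in the mutants, and H2bu2 (Hist3h2ba) differed less between the groups than between the controls. Their differences were -0.01 and -0.07. Their older symbols belong to the same series, and the platform lists them only by newer names that the rule did not take in.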
